A study of Mus musculus with 12 samples.

Results

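The 9 genes described here encode respiratory-chain subunits that exist as alternative isoforms, together with small proteins that place the chain's complexes into supercomplexes. They are Ndufa4 and its relative Ndufa4l2, Cox4i1 and Cox4i2, Cox7a1, Cox7a2 and Cox7a2l, and Higd1a and Higd2a. They were taken by gene symbol from a table of 32285 genes, and all 9 were present and passed the filter on low counts that left 15229 genes to test. The rule reads symbols and no measured value, but the set was put together with earlier results of these data known.

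RNA was sequenced from caudal nucleus pulposus, the notochord-derived gel core of the tail's intervertebral discs, with 1 library per mouse. The 6 Opa1cKO mice had lost Opa1, a dynamin-like GTPase that fuses inner mitochondrial membranes and keeps cristae in shape, through AcanCre, a tamoxifen-activated recombinase driven from the aggrecan locus in disc and cartilage cells. The 6 WT mice are labelled wild type, with no further word on their alleles. Mice of both genotypes were C57BL/6-129/SvEv, received tamoxifen at 100 mg/kg on each of 3 days at an age of 3 months, and were 12 months old at collection, which left 9 months after deletion. The Cre is driven in aggrecan-expressing cells, so the dissected tissue can also hold cells that kept Opa1.

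Cytochrome c oxidase, complex IV of the chain, hands electrons to oxygen, and several of its nuclear-encoded subunits come in a common form and a form favoured in particular tissues or at low oxygen. NDUFA4 was first assigned to complex I and is now counted as a complex IV subunit, and NDUFA4L2, COX4I2 and HIGD1A are known from cultured cells as products of genes induced by the hypoxia-inducible factor HIF-1. The nucleus pulposus has no blood vessels of its own and is known for stable HIF-1 and a largely glycolytic metabolism.

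The pair of Ndufa4 genes shows how alike the isoforms are in sequence while lying on different chromosomes, and the coding sequences are given because the RNA ratio of this pair was one of those that differed. In GENCODE M21, on mm10, Ndufa4l2 lies at chr10:127514967-127517154 on the plus strand and Ndufa4 at chr6:11900292-11907497 on the minus strand. The other genes are also protein-coding and lie at chr8:120668222-120674207 on the plus strand (Cox4i1), chr2:152754173-152765037 plus (Cox4i2), chr7:30184144-30186078 plus (Cox7a1), chr9:79755361-79759878 minus (Cox7a2), chr17:83501918-83517330 minus (Cox7a2l), chr9:121848563-121858362 minus (Higd1a) and chr13:54590207-54591158 plus (Higd2a). The coding sequences of Ndufa4l2 and Ndufa4 hold 264 and 249 bases, stop codon included. Capitals mark the longest run of bases that the pair share, 28 in all.
Ndufa4l2: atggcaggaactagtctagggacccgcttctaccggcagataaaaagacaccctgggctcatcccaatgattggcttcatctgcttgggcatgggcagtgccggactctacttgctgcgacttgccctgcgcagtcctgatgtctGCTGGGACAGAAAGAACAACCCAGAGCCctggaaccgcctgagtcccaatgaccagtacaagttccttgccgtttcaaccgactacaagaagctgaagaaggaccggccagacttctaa
Ndufa4: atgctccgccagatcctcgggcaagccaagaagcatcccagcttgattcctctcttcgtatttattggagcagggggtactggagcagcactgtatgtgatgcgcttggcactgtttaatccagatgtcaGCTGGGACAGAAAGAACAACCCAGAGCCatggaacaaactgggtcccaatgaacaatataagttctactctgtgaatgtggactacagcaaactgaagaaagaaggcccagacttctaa
Over 235 aligned coding bases the pair were 72.3% identical. The shared run was shorter in the other pairs, at 14 bases for Cox4i2 and Cox4i1, 12 for Cox7a1 and Cox7a2, and 11 each for Cox7a2l and Cox7a2 and for Higd1a and Higd2a. Identity was 70.5%, 67.1%, 65.4% and 58.3% in those pairs.

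Library totals ran over 37268242 to 56618266 counts in Opa1cKO and over 45657321 to 53261644 in WT. Sex was unbalanced between the genotypes. By label, 4 of 6 WT and 2 of 6 Opa1cKO mice were female, and by sex-linked reads 5 of 6 WT and 3 of 6 Opa1cKO. The reads went against the labelled sex of 4 libraries (Opa1cKO 4, and WT 4, WT 5 and WT 6). The main model kept the labelled sex, and comparisons were repeated without those libraries, which left 5 Opa1cKO and 3 WT libraries. Libraries of one genotype correlated with each other at a mean Spearman coefficient of 0.98 to 0.987 in Opa1cKO, lowest in Opa1cKO 6, and 0.987 to 0.99 in WT. Opa1 itself stood at 30.2 to 47.7 CPM (reads scaled to library size with TMM factors) in Opa1cKO, against 69.3 to 118 CPM in WT, with no overlap. Levels of the tissue's markers ranged widely. Keratin 8 (Krt8) was high, averaging 1820 ± 319 CPM in Opa1cKO and 1516 ± 259 CPM in WT (SD, n = 6 each). Keratin 19 (Krt19) averaged 2095 ± 570 CPM in Opa1cKO and 2097 ± 456 CPM in WT (SD, n = 6 each). Among notochord genes, T was high, averaging 2882 CPM in Opa1cKO and 2719 CPM in WT. Foxa2 (3.15 CPM in Opa1cKO, 6.87 in WT) and Shh (0.925 in Opa1cKO, 0.679 in WT) were low, and Noto was not tested.

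Of the 9 genes, 2 fell in Opa1cKO and none rose by edgeR's quasi-likelihood test at an adjusted p below 0.05. The background is that 10.2% of the 15229 genes tested were called in either direction, 5.13% of those tested being lower and 5.1% higher. The genes that fell were Higd1a and Ndufa4l2. The other 7 were not called, and the median log2 fold change of all 9 was -0.07, beside 0.01 over all genes tested. DESeq2 and limma-voom likewise called 2 of the 9 lower and 0 higher, and at an unadjusted p below 0.05 edgeR had 1 more, Ndufa4, on the higher side. In CPM, 2 of the 9 had every Opa1cKO library below every WT library, again Higd1a and Ndufa4l2, while 3.64% of all genes tested did so and 6.41% had genotypes that did not overlap in either direction. The dissected tissue is a bulk sample, so fewer cells of a type and less RNA per cell cannot be told apart. A log2 fold change here divides Opa1cKO by WT and is followed by its standard error (SE), and every p from the fit is adjusted over all genes.

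Ndufa4l2, at the head of the set in abundance, fell in Opa1cKO. Its level was 272 CPM in the lowest Opa1cKO library, 419 at the median and 542 in the highest, against 680, 911 and 1097 CPM in WT. Every Opa1cKO library lay below every WT library, Opa1cKO 6 lowest of all. The log2 fold change was -1.18 (SE 0.173, 95% interval -1.55 to -0.81, edgeR adjusted p = 0.000944). Without the 4 libraries whose sex reads went against the label it was -1.52 (adjusted p = 0.0268). Ndufa4l2 shares 32 exonic bases on the opposite strand with Shmt2, whose 32442 counts compare with 380066 for Ndufa4l2, and the sources used here give no strand setting for the counting.

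Ndufa4, the constitutive partner, had 13.4 CPM in the lowest Opa1cKO library, 15.9 at the median and 25.0 in the highest, against 10.3, 11.9 and 14.7 CPM in WT. The ranges overlap, with Opa1cKO 3 highest, and the mean was 17.3 ± 4.24 CPM in Opa1cKO and 12.4 ± 1.78 CPM in WT (SD, n = 6 each). The log2 fold change was 0.45 (SE 0.165, 95% interval 0.10 to 0.80), with an edgeR adjusted p of 0.101, so it was not called. Leaving labelled sex out of the model raised it to 0.48 (adjusted p = 0.0441), and over all alternatives the adjusted p ran from 0.0441 to 0.482.

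Within each library, the ratio of Ndufa4l2 to Ndufa4 was lower in Opa1cKO. In TPM, which divides by gene length, the ratio was 20.2 in the lowest Opa1cKO library, 36.1 at the median and 46.3 in the highest, against 64.9, 90.7 and 134 in WT. No Opa1cKO library reached the lowest WT ratio. The mean log2 count ratio differed by -1.55 between genotypes, a fold of 0.341, with a two-sided exact permutation p of 0.00216, the smallest that 6 against 6 allows, and 0.00541 after adjustment over the 5 pairs examined. Without the 4 libraries of doubtful sex the difference was -1.71, at an unadjusted exact permutation p of 0.0357, the smallest possible there. Ndufa4l2 still made up most of the pair's TPM, at 96.7 ± 1.15% in Opa1cKO and 98.9 ± 0.273% in WT (SD, n = 6 each). The summed TPM of the pair was 1861 ± 418 in Opa1cKO and 3784 ± 644 in WT.

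**Figure D1:**
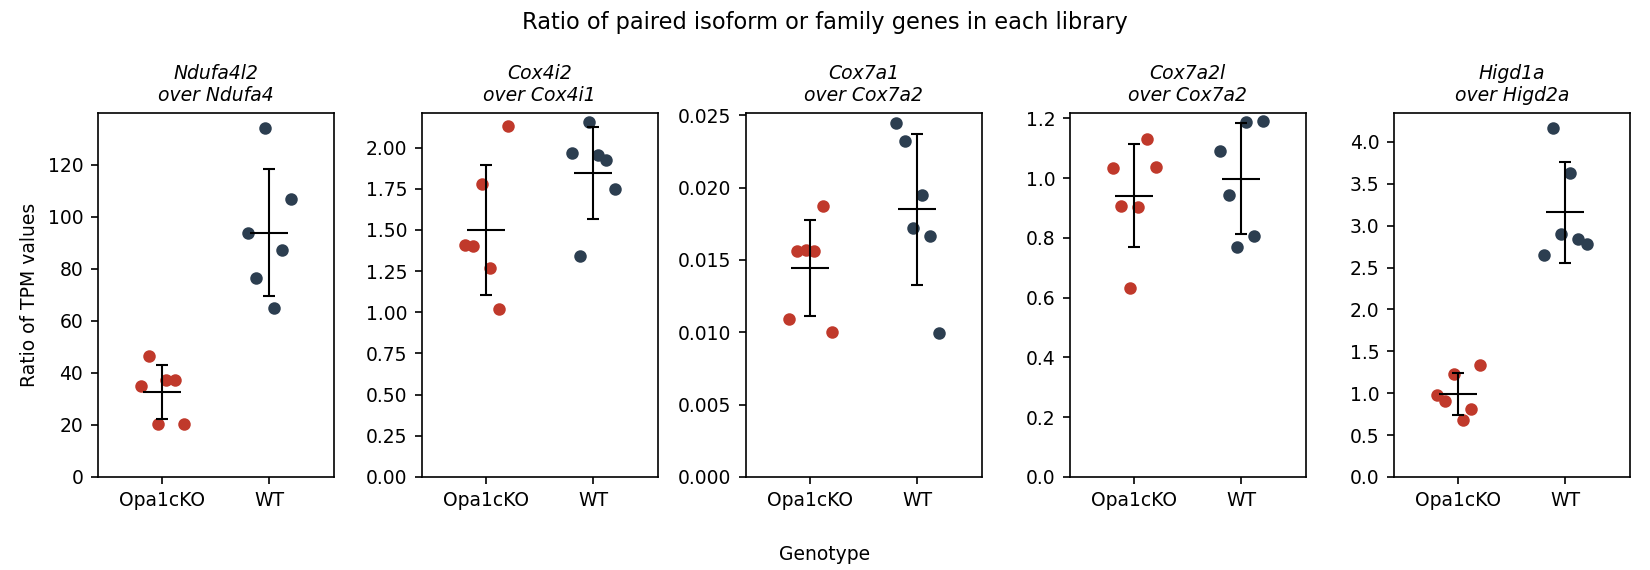
Ratio of TPM values of paired genes in each library, 1 panel per pair and a vertical axis from 0, with points for the 6 Opa1cKO libraries (left) and 6 WT libraries (right), a horizontal line at the mean and bars of 1 SD. The Ndufa4l2 over Ndufa4 points (20.2 to 46.3 in Opa1cKO, 64.9 to 134 in WT) and the Higd1a over Higd2a points (0.682 to 1.33 in Opa1cKO, 2.65 to 4.17 in WT) are apart, and the points of the other pairs overlap.

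Higd1a, which encodes a small inner-membrane protein that binds complex IV, had the largest log2 fold change of the 9 genes. Its level was 90.9 CPM in the lowest Opa1cKO library, 118 at the median and 155 in the highest, against 303, 366 and 400.3 CPM in WT. The gap between the genotypes was wider than the range within either, with Opa1cKO 3 highest in Opa1cKO and WT 6 lowest in WT. The log2 fold change was -1.52 (SE 0.129, 95% interval -1.79 to -1.24, edgeR adjusted p = 1.20e-05). Without the 4 libraries of doubtful sex it was -1.58 (adjusted p = 0.00712). The antisense gene Gm47112 shares 683 exonic bases with Higd1a and had 387 counts in all libraries against 137216 for Higd1a. An annotated copy, Gm9790, is 99.3% identical over 288 bases. It was not among the counted genes, so reads shared with it cannot be checked.

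Higd2a, an assembly factor of complex IV and supercomplexes, had 22.6 CPM in the lowest Opa1cKO library, 27.0 at the median and 28.4 in the highest, against 19.5, 23.9 and 32.2 CPM in WT. The Opa1cKO range lay inside the WT range. Its log2 fold change was 0.09 (SE 0.121, 95% interval -0.17 to 0.34, edgeR adjusted p = 0.711).

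The ratio of Higd1a to Higd2a in TPM was 0.682 in the lowest Opa1cKO library, 0.944 at the median and 1.33 in the highest, against 2.65, 2.87 and 4.17 in WT. In WT every library held more Higd1a than Higd2a per length, while in Opa1cKO 2 of the 6 did (Opa1cKO 3 and Opa1cKO 6). The log2 count ratio differed by -1.69, a fold of 0.310, with an exact permutation p of 0.00216 and 0.00541 over the 5 pairs. Without the 4 libraries of doubtful sex it differed by -1.62 (unadjusted exact permutation p = 0.0357). Higd1a made up 49.1 ± 6.27% of the pair's TPM in Opa1cKO and 75.6 ± 3.19% in WT (SD, n = 6 each). The summed TPM of the pair was 374 ± 27.5 in Opa1cKO and 710 ± 61.1 in WT.

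HIF factors bind DNA at the core letters ACGTG or GCGTG. In the RefSeq GRCm38.p6 promoter table, which gives a 300-base window around each gene's start, 6 of the 9 genes had an entry, and Ndufa4l2, Cox4i1 and Cox4i2 had none. Searched on both strands, 43.8% of the 32851 promoters in the table held at least 1 of these motifs, 19.6% ACGTG and 32.4% GCGTG. They occurred in 5 of the 6 entries, those of Ndufa4, Cox7a1, Cox7a2, Higd1a and Higd2a. A stretch of the Higd1a window is shown because Higd1a fell furthest. It holds a pair of GCGTG motifs that share 1 base, at -70 and -66 from the RefSeq start site, in capitals. It lies at chr9:121857848-121857876 on the minus strand, inside the first, untranslated exon of a GENCODE Higd1a transcript that starts further upstream.
Higd1a: ggtctagcctGCGTGCGTGgcgttcgcgg
Another motif, ACGTG, lies at 43 after the start. Higd1a thus had 3 matches in its window, and so did Cox7a1 and Higd2a, which were not called. These matches describe letters in a window and were set against no binding data.

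Neither COX4 gene was called. Cox4i2, the isoform known from lung and from oxygen-sensing cells, had 58.4 CPM in the lowest Opa1cKO library, 72.8 at the median and 110 in the highest, against 67.6, 96.9 and 126 CPM in WT. Cox4i1, the common isoform, had 91.3, 107 and 121 CPM in Opa1cKO, against 85.8, 101 and 126 CPM in WT. Both ranges overlap. The log2 fold change was -0.28 for Cox4i2 (SE 0.188, 95% interval -0.69 to 0.12, edgeR adjusted p = 0.378) and 0.03 for Cox4i1 (SE 0.104, 95% interval -0.20 to 0.25, adjusted p = 0.912). That of Cox4i2 was -0.15 without Opa1cKO 5 and -0.43 without Opa1cKO 6, and was called in neither case. Cox4i1 shares 154 exonic bases on the opposite strand with Emc8 (24329 counts against 59421).

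Per length, Cox4i2 was the more abundant of the pair in every library of both genotypes. The TPM ratio of Cox4i2 to Cox4i1 was 1.02 in the lowest Opa1cKO library, 1.41 at the median and 2.13 in the highest, against 1.34, 1.94 and 2.15 in WT. The share of Cox4i2 was 59.2 ± 6.17% of the pair's TPM in Opa1cKO and 64.6 ± 3.87% in WT (SD, n = 6 each). The log2 count ratio differed by -0.32, a fold of 0.799 (exact permutation p = 0.117, and 0.195 over the 5 pairs). Without Opa1cKO 6, which had the highest ratio of its group, the difference was -0.43 with an unadjusted exact permutation p of 0.0303. That was the smallest p with single libraries left out, where the difference ran over -0.43 to -0.22 and p up to 0.234. Over all 16 alternatives the unadjusted exact p reached 0.429.

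**Figure D2:**
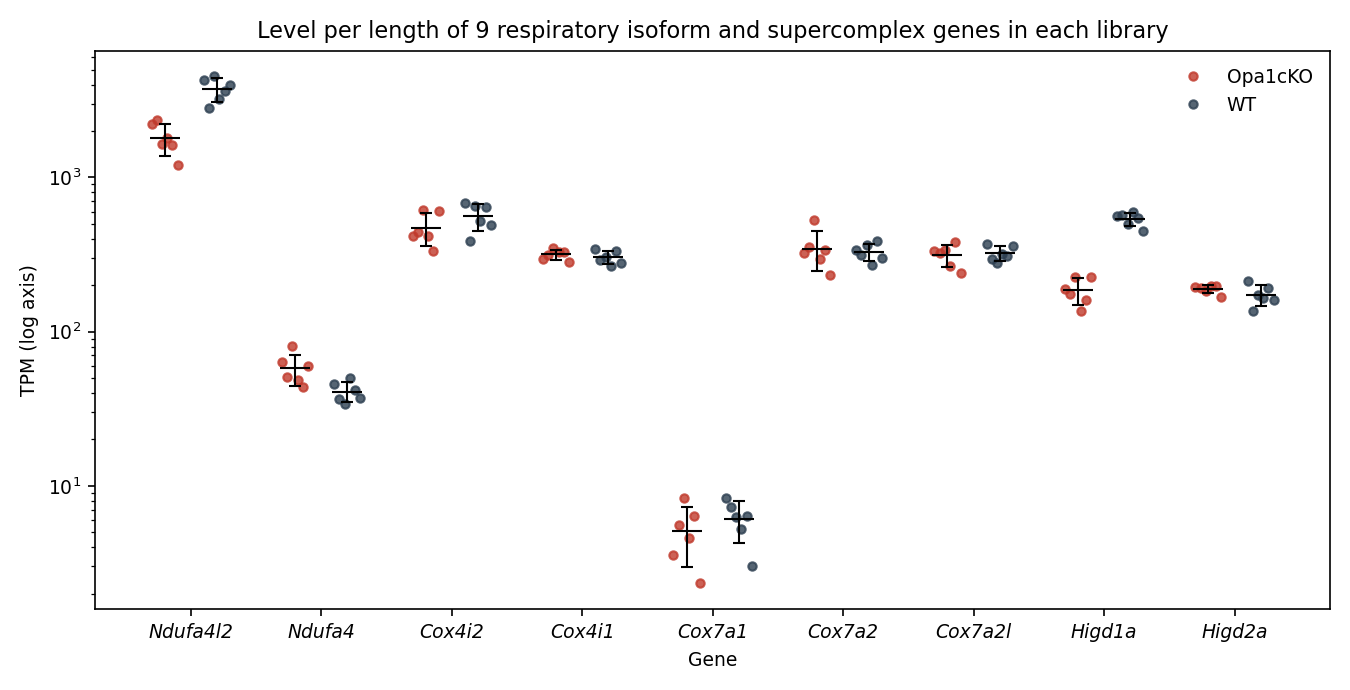
TPM of the 9 genes on a log axis, with 1 point per library, Opa1cKO left of WT, a horizontal line at the mean and bars of 1 SD. Ndufa4l2 stands apart from the rest, at 1804 ± 420 TPM in Opa1cKO and 3744 ± 646 TPM in WT, and Cox7a1 is lowest at 5.11 ± 2.13 TPM in Opa1cKO and 6.09 ± 1.83 TPM in WT.

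The COX7A genes showed no called difference. Cox7a2, the common isoform, had 45.4 CPM in the lowest Opa1cKO library, 68.4 at the median and 113 in the highest, against 52.6, 70.4 and 78.0 CPM in WT, a log2 fold change of -0.04 (SE 0.182, 95% interval -0.43 to 0.36, edgeR adjusted p = 0.932). The spread was wider in Opa1cKO, where Opa1cKO 3 was highest and Opa1cKO 6 lowest. Cox7a1, the heart and skeletal muscle isoform, stood at 11 to 57 reads a library in Opa1cKO and 17 to 55 in WT, a log2 fold change of -0.21 (SE 0.397, 95% interval -1.06 to 0.64, adjusted p = 0.786). The values were -0.31 for Cox7a2 and -0.81 for Cox7a1 without the 4 libraries of doubtful sex, again not called. Skeletal muscle markers were low in both groups, at a summed 3.41 to 31.2 CPM in Opa1cKO and 2.32 to 29.4 CPM in WT, and their part in the Cox7a1 reads was not tested.

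Cox7a2l encodes SCAF1, the factor that ties complex III to complex IV, and the C57BL/6 strain is known for a shorter form of it than other strains carry. Counts per gene do not separate alleles, and which form these mixed-background mice made was not tested. Cox7a2l had 73.8 CPM in the lowest Opa1cKO library, 104 at the median and 126 in the highest, against 91.1, 98.1 and 128 CPM in WT. The log2 fold change was -0.07 (SE 0.134, 95% interval -0.36 to 0.21, edgeR adjusted p = 0.781). An annotated copy, Gm6969, is 97.7% identical over 342 bases. It was not among the counted genes, so reads shared with it cannot be checked.

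Neither ratio within the COX7A family differed past the threshold. Cox7a1 made up 1.42 ± 0.323% of the Cox7a1 and Cox7a2 TPM in Opa1cKO and 1.81 ± 0.506% in WT (SD, n = 6 each). The log2 count ratio of Cox7a1 to Cox7a2 differed by -0.33 (exact permutation p = 0.188, and 0.235 over the 5 pairs). It differed by -0.49 without WT 6, the lowest WT ratio (unadjusted exact permutation p = 0.0260). That difference was -0.62 without the 4 libraries of doubtful sex (unadjusted exact permutation p = 0.0714). With each single library left out in turn, its unadjusted exact permutation p ran from 0.0260 to 0.351. The ratio of Cox7a2l to Cox7a2 was 0.941 ± 0.174 in Opa1cKO and 0.998 ± 0.185 in WT, and the log2 count ratio differed by -0.09 (exact permutation p = 0.623 before and after adjustment).

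Levels per length put Ndufa4l2 first in both genotypes, ranked 34 among all symbols of the TPM table in Opa1cKO and 14 in WT. Cox4i2 was second in both, at 472 ± 114 TPM in Opa1cKO and 562 ± 114 TPM in WT. In Opa1cKO the order went on with Cox7a2, Cox4i1, Cox7a2l, Higd2a, Higd1a, Ndufa4 and Cox7a1. In WT it went on with Higd1a, Cox7a2, Cox7a2l, Cox4i1, Higd2a, Ndufa4 and Cox7a1. Higd1a thus stood seventh in Opa1cKO, at 185 ± 36.2 TPM, and the third in WT, at 537 ± 53.6 TPM, ahead of every COX7A gene and Cox4i1. In Opa1cKO, neighbours in the order overlapped from Cox4i2 to Cox7a2l and between Higd2a and Higd1a, and in WT between Cox4i2 and Higd1a and from Cox7a2 to Cox4i1. Over the 6 Opa1cKO libraries, Opa1cKO 6 was lowest for 6 of the 9 genes in CPM (Ndufa4l2, Cox4i1, Cox7a1, Cox7a2, Cox7a2l and Higd2a) but second highest for Higd1a and Cox4i2.

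Among genes not chosen as members, the other nuclear-encoded complex IV subunits and the complex III subunits held no gene called by edgeR, DESeq2 or limma-voom. Of 13 other nuclear complex IV subunits 9 were tested, with a median log2 fold change of 0.09. The smallest p belonged to Cox8b, a muscle form of the COX8 subunit, at a log2 fold change of 0.39 (adjusted p = 0.130), the 1 gene of both lists with an unadjusted p below 0.05 in edgeR. All 9 complex III subunits were tested, with a median of 0.02. These lists were chosen with earlier results of these data known. Higd1b and Higd1c, relatives of Higd1a, had no reads in any library, and AA467197, a mouse relative of NDUFA4 also known as Nmes1, had 3 to 22 reads in Opa1cKO and 0 to 6 in WT and was not tested.

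The 3 mitochondrially encoded complex IV subunits, the catalytic core, all fell. mt-Co1 stood at 78.7 ± 37.3 CPM in Opa1cKO and 1389 ± 372 CPM in WT (SD, n = 6 each), which is -4.30 on the log2 scale by edgeR (adjusted p = 7.94e-06). mt-Co2 had 0 to 11 reads in Opa1cKO and 45 to 128 in WT, and mt-Co3 0 to 5 reads in Opa1cKO and 27 to 73 in WT. These 2 genes were thus far below mt-Co1 even in WT, where they averaged 1.94 CPM (mt-Co2) and 0.978 CPM (mt-Co3). The call of mt-Co2 was lost without the 4 libraries of doubtful sex (log2 fold change -5.97, edgeR adjusted p = 0.0627), and those of mt-Co1 and mt-Co3 were kept. The mouse nuclear genome holds copies of mitochondrial sequence, so reads of these genes may be shared with them.

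Among assembly factors of complex IV, 1 of 21 tested was higher, 1 lower and 19 not called, with a median log2 fold change of -0.04. Cox15, an enzyme of heme A synthesis, was the one higher, by 0.30 on the log2 scale (SE 0.0805, edgeR adjusted p = 0.0300), and Coa5 the one lower, at -0.34 (SE 0.0863, adjusted p = 0.0236). Both calls were lost with replicate number as a block (adjusted p of 0.102 for Cox15 and 0.0583 for Coa5) and without the 4 libraries of doubtful sex (0.234 for Cox15 and 0.0592 for Coa5), and that of Cox15 with no filter on low counts (0.0545). Both were also lost when Opa1cKO 6 was left out (adjusted p of 0.102 for Cox15 and 0.105 for Coa5), and that of Cox15 also without Opa1cKO 1 (0.0537), WT 2 (0.0564), WT 5 (0.0937) or WT 6 (0.0648), that of Coa5 also without Opa1cKO 5 (0.0536). Of 8 genes known to act on the choice of COX4 isoform, 2 rose. Hif1a, the oxygen-regulated HIF-1 subunit, rose by 0.58 (SE 0.0889, adjusted p = 0.00130), at a locus where the antisense Gm15283 shares 330 exonic bases. Chchd10, a small intermembrane-space protein, rose by 1.24 (SE 0.307, adjusted p = 0.0206) at 2.28 CPM in Opa1cKO and 0.867 CPM in WT, and its call was lost without Opa1cKO 6 (adjusted p = 0.0637), WT 5 (0.0588) or WT 6 (0.0663). Without the 4 libraries of doubtful sex, Hif1a had an adjusted p of 0.0723 and Chchd10 of 0.249.

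Hypoxia-inducible genes of other function fell widely. Of 18 such genes, 16 fell and none rose, with a median log2 fold change of -0.87, and the CPM ranges of those 16 did not overlap, as was so, in the lower direction, for 3.64% of all genes tested. That list was likewise drawn up with earlier results known, so its direction is no independent support. Adrenomedullin (Adm) had the largest difference of the 18, -2.95 (SE 0.146, edgeR adjusted p = 1.38e-07), followed by the prolyl hydroxylase Egln3 at -2.48 (SE 0.161, adjusted p = 1.42e-06). The carbonic anhydrase Car9 fell by 1.58 on the log2 scale (SE 0.192, adjusted p = 0.000310) and the mitophagy receptor Bnip3 by 1.05 (SE 0.119, adjusted p = 0.000147). The 2 not called by edgeR were P4ha2, at -0.37 (adjusted p = 0.270), and Kdm3a, at -0.30 (adjusted p = 0.0611), while DESeq2 called 17 of the 18 lower and limma-voom all 18. Without the 4 libraries of doubtful sex 12 of the 18 were called lower.

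**Figure D3:**
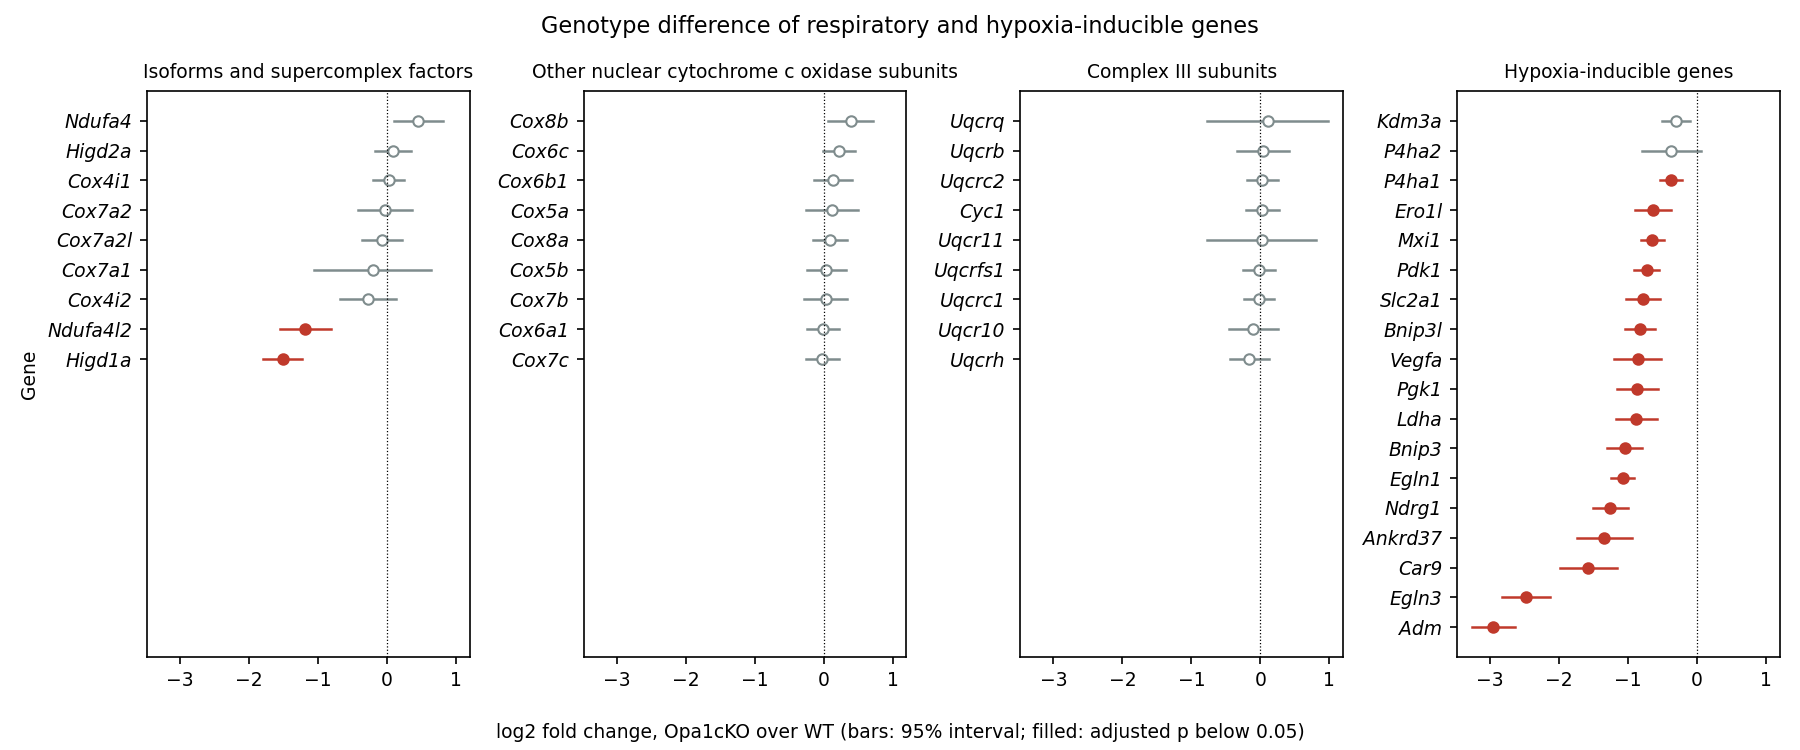
Log2 fold change of Opa1cKO over WT with its 95% interval for 4 groups of genes, on 1 shared horizontal scale, with filled points for an adjusted p below 0.05. Higd1a (-1.52) and Ndufa4l2 (-1.18) lie within the range of the hypoxia-inducible genes of the right panel (-2.95 to -0.30), the other 7 members lie between -0.28 and 0.45, and no subunit of complex III or other nuclear subunit of complex IV is filled.

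Pericyte and smooth muscle markers summed to 749 to 1648 CPM in Opa1cKO and 627 to 882 CPM in WT, with 2 of 8 tested higher by edgeR (Cspg4 at 1.13 and Mcam at 0.60 on the log2 scale) and none lower. Of the same list, the smooth muscle genes Myh11 and Tagln had log2 fold changes of -0.82 (edgeR adjusted p = 0.10) and -0.44 (adjusted p = 0.423), and DESeq2 called 1 gene of the list lower. The pericyte genes Kcnj8 (0 to 3 reads in Opa1cKO, 0 to 2 in WT) and Abcc9 (0 to 6 reads in Opa1cKO, 0 to 7 in WT) were at or near 0 in every library. Pdgfrb, also of that list, averaged 14.4 CPM in Opa1cKO and 13.9 CPM in WT. Acta2 averaged 288 CPM in Opa1cKO and 251 CPM in WT, and neither Pdgfrb nor Acta2 was called by edgeR. Endothelial markers summed to 11.8 to 21.3 CPM in Opa1cKO and 9.75 to 16.1 CPM in WT, with none called by edgeR or DESeq2 and 1 called higher by limma-voom. Macrophage markers summed to 97.2 to 118 CPM in Opa1cKO and 105 to 197 CPM in WT, and of 5 tested by edgeR Cd68 rose by 1.28, Csf1r fell by 0.88 and Cd163 fell by 3.98 on the log2 scale. Keratinocyte markers summed to 11.2 to 43.3 CPM in Opa1cKO and 6.36 to 18 CPM in WT. Of 2 tested by edgeR, Krtdap rose by 1.52 on the log2 scale, with CPM ranges that overlapped. DESeq2 called 1 gene of this list higher and limma-voom 0. The part of these cell types in the members' differences was not tested. Of the nucleus pulposus and notochord markers, 2 of 11 tested fell by edgeR, against 3 by DESeq2 and 4 by limma-voom. The 2 called by edgeR were Slc2a1, which is also one of the hypoxia-inducible genes, and Cdh2, and the list summed to 43250 to 57310 CPM in Opa1cKO and 47640 to 61660 CPM in WT.

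By the deviation of each library from its genotype's mean, the genes most like Ndufa4l2 over the 12 libraries were Tle5 (Pearson r = 0.968, Spearman rho = 0.958), Ap2s1 (r = 0.965, rho = 0.923) and Gpank1 (r = 0.958, rho = 0.958). For Higd1a they were Slc10a3 (r = 0.965, rho = 0.951), Wbp4 (r = 0.961, rho = 0.951) and Lactb (r = 0.954, rho = 0.958). None of these 6 was called between genotypes. Such deviations share the depth and scaling of each library, and the coefficients are given as a description. Without the 2 libraries farthest from the median they ran from 0.901 to 0.940.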

How the data were processed

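The labels' protocols state an input of 50 ng RNA, a strand-preserving kit with ribosomal depletion and 14 PCR cycles. Alignment used STAR 2.7.11b and mm10, per the submitters' processing notes; the counter, its annotation and its strand mode are not stated in the labels or files. The authors deposited raw read counts of 32285 genes and a TPM table (length-scaled share of the library) of 32128 symbols. The same fixed length per gene underlies TPM in all libraries.

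Counts were tested with edgeR 4.0.16 in R 4.3.3, with TMM factors, filterByExpr (minimum count 10), genotype and labelled sex as terms of a robust quasi-likelihood model of the 12 libraries, and Benjamini-Hochberg adjustment over 15229 genes. Calls used an adjusted p below 0.05. Pair ratios used log2 counts with a pseudocount of 0.5 and two-sided exact permutation tests (scipy 1.17.1). Coding sequences and coordinates came from GENCODE M21, promoters from RefSeq GRCm38.p6, and near copies from BLAST 2.17.0 (a nucleotide search). Scripts for the fits were tested on simulated data. Every pair of libraries differed by more than sampling noise (chi-square per degree of freedom at least 30.63). At 1 CPM a gene has 37.3 to 56.6 reads; PCR duplicates are not separable from distinct molecules.

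The members and lists were chosen with earlier results of these data known. Named could be the 9 members, Opa1, any gene of the respiratory and hypoxia lists, called genes first, and, for each called member, the 3 genes with the highest within-genotype correlation. Not every called hypoxia gene is named. P4ha2 and Kdm3a, which complete a count, and the named cell type markers, which come from the marker lists, were chosen after their values were seen. Alternatives were other sex terms, a block by replicate number, DESeq2 1.42.0, limma 3.58.1 with voom, other scalings, filters and units, removal of the 4 libraries whose reads go against the labelled sex, and each library left out.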

Additional observations from a re-analysis of the deposited data

Results flagged for a closer look

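Over 28 sets of 6 values tested for a single value far from the rest, 1 stood out. The lowest Opa1cKO value of Higd2a, 22.6 CPM in Opa1cKO 6, lay apart from the other 5 Opa1cKO libraries, which stood at 26.3 to 28.4 CPM. Its gap to the nearest of them was 0.631 of the group's range, past Dixon's critical value. Chance marks about 1 in 20 such sets. Opa1cKO 6 also had the lowest mean correlation with its own group, 0.98, and its part in the value was not tested.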

How the results depend on the processing

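Higd1a and Ndufa4l2 stayed lower and called under all 24 alternatives, at -1.61 to -1.43 (adjusted p up to 0.00712) and -1.52 to -1.03 (adjusted p up to 0.0268). With sex taken from the sex-linked reads, Higd1a was -1.61 (edgeR adjusted p = 5.34e-06) and Ndufa4l2 -1.14 (edgeR adjusted p = 0.00208), and 1775 genes were called. The ratios Ndufa4l2 over Ndufa4 (-1.71 to -1.43) and Higd1a over Higd2a (-1.78 to -1.59) stayed past the threshold in all 16. Over all members and alternatives, 203 of 216 values kept direction and call, 12 turned sign and 1 passed the threshold: Ndufa4 at 0.48 without the sex covariate. Turned in sign, each with no call, were values of Cox4i1, Cox7a2, Cox7a1 and Cox7a2l. Cox4i1 turned to -0.10 without the 4 libraries against their labelled sex and ran over -0.024 to 0.093 with single libraries left out. Cox7a2 turned to 0.058 without the sex covariate and ran over -0.16 to 0.12 with single libraries left out. Cox7a1 and Cox7a2l turned only without Opa1cKO 6, to 0.12 and 0.050. Their ranges with single libraries left out were -0.49 to 0.12 and -0.24 to 0.050. Cox7a2 (-0.31) and Cox7a1 (-0.81) moved without those 4 libraries but kept their sign. The genotype difference in the log2 count ratio of Cox7a2l to Cox7a2 turned sign in 2 of 16 alternatives. This difference was 0.0087 without those 4 libraries and -0.16 to 0.024 with single libraries left out. Cox4i2 over Cox4i1 ran over -0.43 to -0.22 and Cox7a1 over Cox7a2 over -0.49 to -0.23 there, the second -0.62 without the 4 libraries. Cox4i2 itself ran over -0.43 to -0.15. The cause of these moves was not tested. Of 564 values of other genes, 23 lost the call. Of the 8 COX4 regulators, DESeq2 called 3 higher and 1 lower, against 2 and 0 by edgeR.

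The count of genes called, 1558, was 2356 with DESeq2, 1037 on TPM with no filter, 325 without the 4 libraries (5 Opa1cKO and 3 WT left), and 819 to 1995 with single libraries left out, 819 without Opa1cKO 6 and 973 without WT 6. Replicate numbers were shared by the genotypes, but same-numbered libraries correlated at only -0.217 to 0.043 in their deviations. No WT library matched the Opa1cKO library of its own number best, so same-numbered libraries were not treated as pairs. With the replicate block 769 genes were called, Higd1a at -1.53 (adjusted p = 0.00169) and Ndufa4l2 at -1.18 (0.00834), and no member's call changed; of other genes, Cox15, Coa5 and P4ha1 lost theirs. For the ratios, exact sign flips over the numbers gave p = 0.0312 for both called pairs, the smallest possible and not adjusted over the 5 pairs. No scaling moved the median of all genes by 0.1. Depth limits Cox7a1, with 11 to 57 reads in Opa1cKO and 17 to 55 in WT.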
